A study of Homo sapiens with 12 samples.

Results

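Day 36 cells sorted as positive for SCGB3A2 were compared with the undifferentiated cells they came from. The members are the 3 arrays titled day 36 SC+ (replicates A, B and C) and the 2 arrays titled day 0 (A and C), 5 of the 12 arrays of the study, and all 23786 probe sets entered the comparison. The cells of both groups are RUES2, a human embryonic stem cell line. The day 0 group is the undifferentiated culture. The day 36 group, per the labels' protocols, had passed through definitive endoderm and anterior foregut endoderm, had been sorted as CD47hi lung progenitors, had been kept in a medium low in Wnt activity and had then been sorted on SCGB3A2. The other arrays are day 15 CD47hi (n = 2), day 22 (n = 2) and day 36 SCGB3A2- (n = 3). They are used below to place a change along the course and to ask whether it is shared by both sorted fractions. No title of a day 0 array mentions sorting, so time in culture and sorting cannot be told apart in this comparison. All groups are from 1 line, and the labels do not say whether replicates were separate differentiations, so p-values measure only how far these arrays vary, and that variation may be technical.

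Embryonic stem cells hold their state through a small set of transcription factors, among them OCT4 (gene POU5F1), SOX2 and NANOG, and they divide fast with a short G1 phase. On leaving that state toward lung, cells first form endoderm, marked by FOXA and GATA factors, and a part of the ventral foregut then turns on NKX2-1, the factor that marks lung and thyroid progenitors. SCGB3A2 is a secretoglobin, a small secreted protein of club cells, the non-ciliated secretory cells of the airway, and NKX2-1 is known to act on its gene. Surfactant proteins are made by alveolar type 2 cells, and surfactant protein B also by club cells. Liver and stomach arise from neighbouring parts of the same foregut tube.

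The values are log2 signals after RMA, the authors' normalization, with 1 value per probe set and array. Where values of arrays are set against each other, day 0 A and C come first and SCGB3A2+ A, B and C second. A difference of 1 is 2-fold, all differences below are the SCGB3A2+ mean minus the day 0 mean with limma's standard error (n = 3 and 2), and a gene is said to have risen or fallen where the Benjamini-Hochberg adjusted p over all probe sets was under 0.05. That standard error rests on a spread pooled over all 12 arrays, not on these groups alone. Array quality weights, not used in this fit, were lowest for the day 0 arrays (0.455 each, against 0.824 to 1.72 for the others). Array medians ran from 3.66 to 3.75, since RMA equalises the arrays. The correlation across all probe sets was 0.854 to 0.872 between SCGB3A2+ and day 0 arrays, against 0.985 to 0.987 among the SCGB3A2+ arrays and 0.978 between the day 0 arrays. SCGB3A2+ cells were higher than day 0 in 4513 probe sets (19.0%) and lower in 5151 (21.7%), together 40.6%. Of these, 2430 (10.2%) and 2580 (10.8%) differed at least 2-fold. The median difference over all probe sets was -0.05, and these shares are the background for every count below.

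The labels were checked against marker genes. All 9 measured markers of undifferentiated cells were lower in SCGB3A2+ cells, and 8 of 10 airway markers were higher and none lower. The 8 include SCGB3A2 itself, so that member is no check of the labels. NKX2-1 read 2.60 and 3.34 at day 0 and 7.69, 7.57 and 7.63 in SCGB3A2+ cells. SCGB3A2, the gene sorted on, read 7.24 and 7.05 at day 0 and 9.04, 9.39 and 8.89 after the sort, a difference of 1.96 ± 0.24 that the sort itself bears on. It was lower at day 15 (1.73) and in SCGB3A2- cells (2.32) than at day 0, so its day 0 value is not the lowest of the course. The airway markers that did not pass were CDH1, an epithelial cadherin that stem cells also carry (9.69 and 9.23 at day 0, 9.79, 9.92 and 9.79 in SCGB3A2+), and SCGB3A1, another airway secretoglobin, which was low in both groups (2.63 and 2.97 against 2.47, 2.55 and 2.01). Both passed when 1 array was left out: CDH1 without day 0 A (0.61, adjusted p = 0.0066) and SCGB3A1 without SCGB3A2+ B (-0.55, adjusted p = 0.0498).

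**Figure D1:**
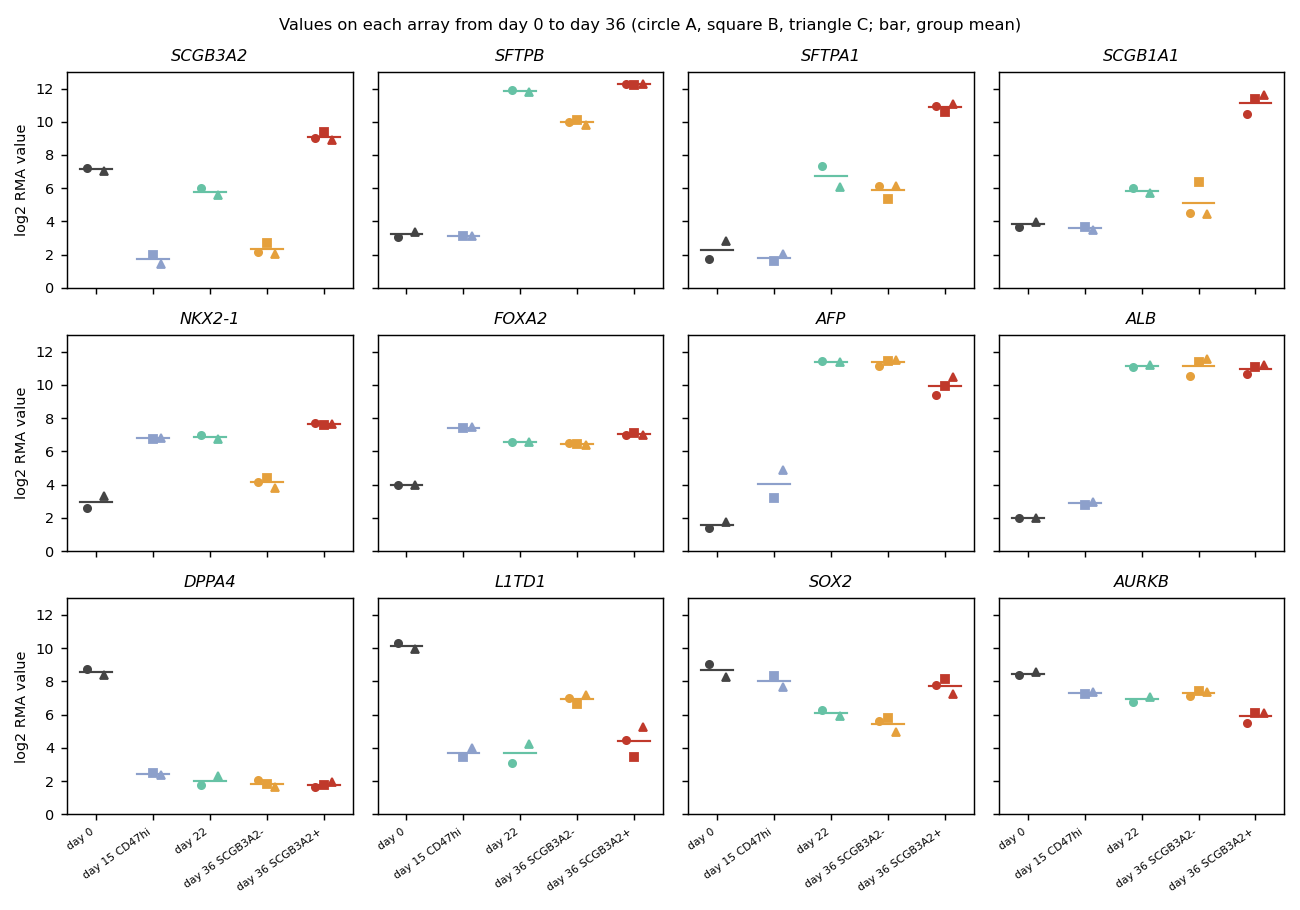
Log2 RMA values of 12 genes on each of the 12 arrays, by group, with the group mean as a bar. SFTPB, AFP and ALB are high by day 22, SCGB1A1 is highest on the 3 SCGB3A2+ arrays, and DPPA4 has left its day 0 level by day 15.

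The largest fall was in the precursors of the miR-302 family, microRNAs (miRNAs) typical of human embryonic stem cells. A miRNA pairs with its targets mainly through the seed, bases 2 to 8 of the mature strand, and miRNAs that share a seed can share targets. The probe sets measure transcripts of the precursor genes, not the mature strands. The mature sequences of the precursors that moved most in each seed group are shown here because they show which of them share a seed. The seed is in capitals, and the sequences and positions are RefSeq's on GRCh38.p14.
miR-302a-3p: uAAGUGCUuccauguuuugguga
miR-302b-3p: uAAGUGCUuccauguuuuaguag
miR-302c-3p: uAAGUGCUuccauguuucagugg
miR-302d-3p: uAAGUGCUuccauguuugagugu
miR-520e-3p: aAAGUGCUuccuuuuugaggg
miR-367-3p: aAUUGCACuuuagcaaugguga
miR-363-3p: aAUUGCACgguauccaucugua
miR-25-3p: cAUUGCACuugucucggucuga
miR-20b-5p: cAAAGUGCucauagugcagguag
miR-93-5p: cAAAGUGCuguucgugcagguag
miR-18b-5p: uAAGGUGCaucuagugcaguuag
miR-181b-5p: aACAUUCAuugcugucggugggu
miR-21-5p: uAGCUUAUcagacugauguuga

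The genes of miR-302a to miR-302d and miR-367 lie together within 684 bases at chr4:112647874-112648557, minus strand. All 5 precursors fell, and in none did the groups overlap. MIR302C read 10.49 and 10.70 at day 0 and 1.87, 1.64 and 1.60 in SCGB3A2+ cells, a difference of -8.90 ± 0.15 (adjusted p = 1.99e-11), the largest decrease of all probe sets. MIR302B read 9.52 and 9.74 against 2.11, 1.22 and 1.76 (-7.93 ± 0.24), and MIR302A read 7.58 and 7.10 against 1.04, 0.82 and 1.09 (-6.36 ± 0.16). MIR302D differed by -6.31 ± 0.21 and MIR367 by -4.02 ± 0.16. All 5 were already low at day 15, where their means lay between 0.91 and 1.79, and they were low in SCGB3A2- cells too, with means from 0.93 to 1.76.

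Of 900 miRNA hairpins with a probe set, 49 (5.44%) were higher and 93 (10.3%) lower, both below the shares over all probe sets. Over all 1140 probe sets named as miRNA genes the shares were 6.32% and 11.9%. Of the hairpins, 4 rose and 11 fell by 4-fold or more. The seed AAGUGCU, that of miR-302, is found in 10 precursors, of which 6 fell, 0 rose and 4 did not pass. The 4 were MIR302E, MIR372, MIR373 and MIR520C, all under 2.5 on every array of both groups. The seed AUUGCAC joins miR-367 with miR-363 and miR-25, and 4 of its 6 precursors fell while MIR32 rose (1.04 ± 0.24). MIR363, MIR20B and MIR18B belong to the miR-106a to miR-363 cluster on chromosome X, and each fell from readings of 2.92 to 4.13 at day 0 to at most 1.21 in SCGB3A2+ cells. In the same cluster MIR92A2 fell by less (-0.58 ± 0.15) and MIR106A did not pass (-0.31 ± 0.12). Both were low at day 0 already (1.71 and 1.56, and 1.22 and 1.18). MIR25, MIR93 and MIR106B share 1 host gene on chromosome 7, and they fell by less than MIR363, MIR20B and MIR18B, with differences of -1.86, -1.06 and -0.71. The other direction was rarer. MIR181B1, a gene of a miRNA widely made in differentiated tissue, rose from 1.89 and 2.36 to 6.37, 6.04 and 6.12. It carries the same mature sequence as MIR181B2, which rose less (0.87 ± 0.20), and 3 of the 7 precursors with their seed rose and none fell. MIR181A1, close to MIR181B1 on the same strand of chromosome 1, read 1.24 and 1.67 against 1.24, 1.07 and 1.02 and did not pass. MIR21, a miRNA abundant in many epithelia, rose from 4.46 and 4.66 to 7.33, 7.20 and 7.20. The 6 seed groups described here were picked after their values were seen.

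**Figure D2:**
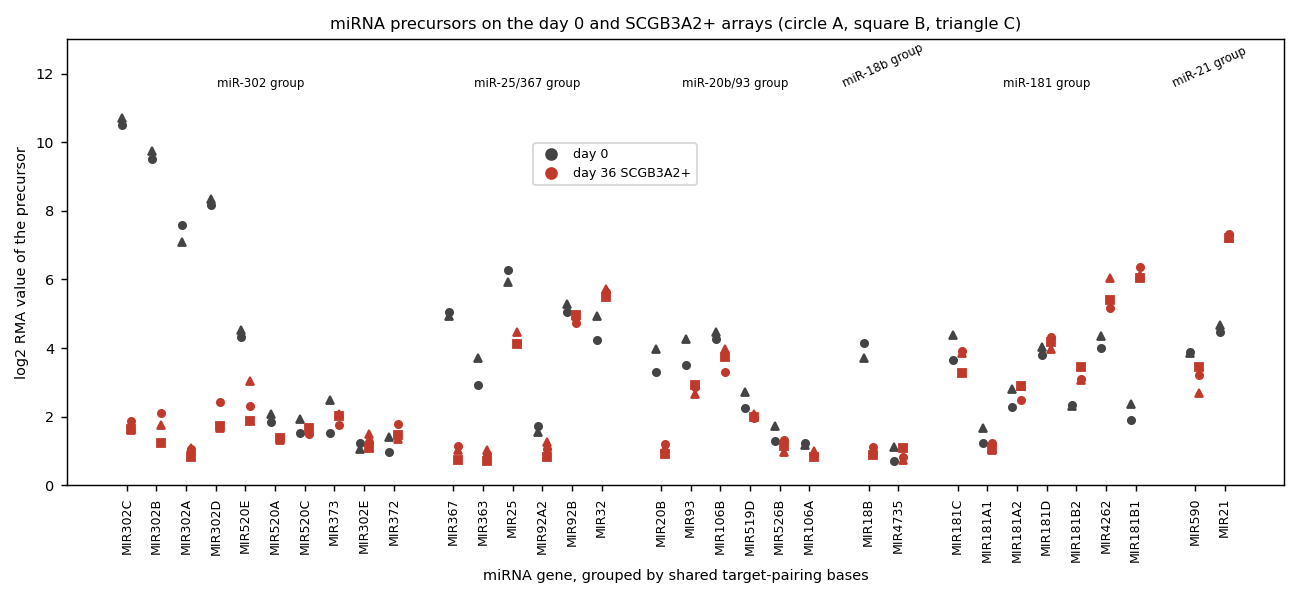
Log2 RMA values of 33 miRNA precursors on the day 0 (grey) and SCGB3A2+ (red) arrays, grouped by the seed they share. In the miR-302 group the 4 clustered precursors lie above 7 at day 0 and below 2.5 in SCGB3A2+ cells, and MIR181B1 and MIR21 go the other way.

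The genes of the pluripotent state fell together. Of 33 measured core pluripotency genes 29 (87.9%, against 21.7% of all probe sets) were lower, 2 were higher and 2 did not pass, with a median difference of -3.12. ESRG, a long noncoding RNA of human pluripotent cells, read 10.03 and 9.96 at day 0 and 1.95, 1.66 and 1.58 in SCGB3A2+ cells (-8.26 ± 0.19). DPPA4, a chromatin protein of pluripotent cells, read 8.76 and 8.39 against 1.62, 1.74 and 1.97 (-6.80 ± 0.20). PRDM14, a factor that holds human stem cells undifferentiated, read 8.002 and 7.34 against 1.63, 1.63 and 1.84 (-5.97 ± 0.18). The arrays of the groups did not overlap in any of these. NANOG was lower on every SCGB3A2+ array (2.02, 1.71 and 1.96) than at day 0, but its day 0 arrays stood apart from each other (5.88 and 8.12). POU5F1 read 4.02 and 4.75 at day 0 and 1.79, 1.98 and 1.62 in SCGB3A2+ cells (-2.58 ± 0.22). Its day 0 readings were not far above the medians of those arrays (3.70 and 3.75), and RMA compresses differences of dim probe sets. ZSCAN10 and ZIC2, other zinc finger factors of this state, differed by -4.49 and -4.96. The 2 members that rose were KLF4 (1.90 ± 0.22) and TFAP2C (1.85 ± 0.24), transcription factors that epithelia also use, and FGF4 and UTF1 did not pass. In these bulk arrays, fewer cells of a type and less RNA per cell cannot be told apart.

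SOX2 fell by little. This factor of stem cells is also a factor of the embryonic airway. It read 9.04 and 8.28 at day 0 and 7.76, 8.13 and 7.22 in SCGB3A2+ cells, a difference of -0.96 ± 0.33 (adjusted p = 0.0354), while the day 22 mean was 6.09 and the SCGB3A2- mean 5.45. The difference did not pass without day 0 A (-0.58, adjusted p = 0.275), without SCGB3A2+ A (-0.99, adjusted p = 0.0635) or without SCGB3A2+ C (-0.72, adjusted p = 0.117). SOX2 was higher in SCGB3A2+ than in SCGB3A2- cells by 2.25 ± 0.29 (adjusted p = 2.25e-04).

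Beyond the core factors, the largest falls were in single genes with known ties to stem cells. SLC7A3, a transporter of cationic amino acids, read 10.44 and 10.40 at day 0 and 1.98, 2.29 and 2.01 in SCGB3A2+ cells (-8.32 ± 0.17). SFRP2, a secreted binder of Wnt ligands, read 9.85 and 9.92 against 2.70, 2.99 and 2.87 (-7.03 ± 0.15). PODXL, a surface sialomucin, read 11.11 and 11.06 against 3.60, 4.73 and 4.63 (-6.77 ± 0.36). POLR3G, a subunit of RNA polymerase III found in stem cells, fell by 5.99 on the log2 scale, and FGF2, the growth factor that such cells depend on, by 5.99. PTPRZ1, a receptor phosphatase, and GRPR, the receptor of gastrin-releasing peptide, differed by -6.75 and -6.16. In each of these 7 genes the lowest day 0 array lay above the highest SCGB3A2+ array.

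Proteins that bind RNA or set the chromatin state of stem cells changed unevenly. Of 12 oncofetal RNA-binding protein genes 7 fell and 1 rose, and 2 rose without day 0 A. LIN28A, which blocks the making of let-7 miRNAs, read 8.20 and 7.94 at day 0 and 2.49, 1.89 and 2.24 in SCGB3A2+ cells (-5.86 ± 0.42), and its relative LIN28B fell less (-2.60 ± 0.24). L1TD1, an RNA-binding protein of LINE-1 origin, differed by -5.72 ± 0.45, and TRIM71, a let-7 target, by -3.12 ± 0.18. IGF2BP2 and ESRP1, the latter a splicing factor of epithelia, gave differences of 0.30 and 0.01 and did not pass. IGF2BP2 passed without day 0 A (0.63, adjusted p = 0.00674).

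Of 21 DNA methylation and chromatin regulators 12 fell and 2 rose, and the count of rises was 4 without day 0 A and 1 without day 0 C. DNMT3B, a de novo DNA methyltransferase, read 9.83 and 9.06 against 3.41, 3.53 and 3.75 (-5.88 ± 0.23). JARID2, a partner of Polycomb complex 2, fell by 3.74 and HELLS, a remodeller needed for DNA methylation, by 3.06 on the log2 scale. Of the TET genes, whose enzymes oxidise methylcytosine, TET1 read 8.75 and 8.75 at day 0 and 5.33, 6.15 and 5.18 in SCGB3A2+ cells (-3.20 ± 0.23), while TET2 read 3.68 and 4.67 against 6.92, 6.94 and 6.83 (2.72 ± 0.22). TET3 gave 0.47 and did not pass, though it did without day 0 A (0.85, adjusted p = 0.00218). TERT, the telomerase catalytic subunit, differed by -2.15 ± 0.13, and TERF1, a telomere-binding protein, by -3.36 ± 0.18. Of the 20 telomere and germ cell genes 7 fell and 3 rose.

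Genes of cell division were lower in SCGB3A2+ cells. Of 38 mitosis and G2/M genes 36 (94.7%) fell and 0 rose, with a median difference of -1.34. Of 39 DNA replication and G1/S genes 29 (74.4%) fell and 2 rose, CCND1 and CCNE2, with a median of -1.40. AURKB, a kinase of chromosome segregation, read 8.37 and 8.55 at day 0 and 5.50, 6.10 and 6.09 in SCGB3A2+ cells (-2.57 ± 0.19). BUB1B, of the spindle checkpoint, read 7.71 and 7.33 against 4.63, 5.52 and 5.10 (-2.44 ± 0.22), and MCM5, of the replicative helicase, read 7.97 and 7.55 against 4.86, 5.60 and 4.88 (-2.65 ± 0.21). The proliferation marker MKI67 fell less (-1.37 ± 0.21), and PCNA did not pass (-0.11). KIF20A and NUSAP1 were the 2 mitosis genes that did not pass, and NUSAP1 passed without day 0 C (-0.94, adjusted p = 0.0383) or without SCGB3A2+ B (-0.87, adjusted p = 0.0176). CCND1, the G1 cyclin that embryonic stem cells hold low, rose from 7.02 and 6.77 to 9.23, 9.16 and 9.42 (2.37 ± 0.14). CCNE2, a cyclin of the entry into S phase, was close to the threshold (0.54 ± 0.19, adjusted p = 0.0428) and did not pass without day 0 C (0.38, adjusted p = 0.262), without SCGB3A2+ B (0.40, adjusted p = 0.136) or C (0.48, adjusted p = 0.107), or without any 1 of the day 15 and day 22 arrays or of SCGB3A2- B and C, where its adjusted p ran from 0.0542 to 0.0582. The same SCGB3A2+ cells were also below SCGB3A2- cells in 29 of the 38 mitosis genes and in 32 of the 39 replication genes, where 12.8% of all probe sets were lower.

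Cell cycle inhibitors and p53 targets, taken as 1 list, moved the other way, as 15 of 22 rose and 1 fell. CDKN1A, a cyclin-dependent kinase inhibitor under p53, read 2.46 and 3.20 at day 0 and 5.42, 5.26 and 5.53 in SCGB3A2+ cells (2.57 ± 0.19). TP53INP1 (2.50 ± 0.13), BTG1 (2.30 ± 0.13) and CDKN1B (1.69 ± 0.16) rose as well, and the pro-apoptotic BAX fell (-0.74 ± 0.19). Of 31 ribosome biogenesis and nucleolar genes 26 (83.9%) fell and 0 rose, or 1 without day 0 A. NOP56, of the snoRNP that methylates ribosomal RNA, read 9.41 and 9.06 against 7.34, 7.54 and 7.30 (-1.85 ± 0.14), and UTP20 differed by -2.16 ± 0.12. The ribosomal proteins themselves were near the background, with 6 of 27 lower and 3 higher, and their count of lower genes was 10 without day 0 A. RPL39L, RPL36A, RPL22L1 and RPL37 fell most, with differences of -2.42, -1.80, -1.67 and -1.37. Probe sets for ribosomal proteins can take signal from near-identical pseudogenes.

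The largest rises were in secreted proteins of lung and of liver. SFTPB, surfactant protein B, read 3.09 and 3.36 at day 0 and 12.26, 12.20 and 12.302 in SCGB3A2+ cells (9.03 ± 0.14, adjusted p = 1.19e-11). FGG, the fibrinogen gamma chain, had the largest difference of all probe sets, from 1.5 and 1.89 to 11.73, 11.48 and 11.51 (9.88 ± 0.26). Its day 0 values lie below the array medians, near the floor, so no ratio is given. HP, the haemoglobin-binding haptoglobin, read 1.51 and 2.44 against 11.45, 10.86 and 10.63 (9.003 ± 0.48). The 15 characterised genes that rose most held the surfactant protein genes SFTPB and SFTPA1, the transcript SFTA3, the club cell secretoglobin SCGB1A1 and the antiprotease SLPI. They also held 8 plasma proteins or protease inhibitors (FGG, FGB, FGA, HP, ALB, AFP, ITIH2 and SERPINA1). The others were CYP2B7P, a cytochrome pseudogene, and SPINK1, a trypsin inhibitor.

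Of 27 alveolar type 2 and surfactant genes 23 (85.2%, against 19.0% of all probe sets) rose and 2 fell, with a median difference of 4.48. SFTPA1, surfactant protein A, read 1.71 and 2.83 at day 0 and 10.95, 10.59 and 11.08 in SCGB3A2+ cells (8.60 ± 0.40); its gene has a near-identical neighbour, so the 2 may share signal. SFTA3, a transcript next to NKX2-1, read 1.93 and 1.67 against 10.02, 9.86 and 10.09 (8.19 ± 0.17). LAMP3, a protein of lamellar bodies, read 3.07 and 3.13 against 9.71, 9.22 and 9.86 (6.498 ± 0.27). SFTPC, the surfactant protein most restricted to type 2 cells, read 3.39 and 2.67 against 7.58, 6.87 and 8.09 (4.48 ± 0.40), and SFTPD read 2.16 and 2.10 against 7.38, 6.12 and 5.52 (4.21 ± 0.44). SFTPD showed the wider spread among the SCGB3A2+ arrays, with A above B and C. The exceptions were ALPL, an alkaline phosphatase that stem cells hold high, which fell from 8.82 and 7.96 to 4.42, 4.15 and 5.09, and HHIP, a Hedgehog inhibitor (-0.54 ± 0.14). SCD, a fatty acid desaturase, and ETV5, an FGF-responsive factor, gave 0.19 and -0.24 and did not pass. Of the 27 members, 10 stand on another list as well.

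Of 33 club and secretory airway genes 17 (51.5%) rose and 1 fell, or 2 without SCGB3A2+ B. SCGB1A1, the club cell secretoglobin, read 3.66 and 3.995 at day 0 and 10.45, 11.39 and 11.62 in SCGB3A2+ cells (7.33 ± 0.51). SLPI, a secreted antiprotease, read 1.95 and 3.49 against 10.64, 10.34 and 10.25 (7.69 ± 0.34), CXCL17, a mucosal chemokine, read 3.72 and 3.69 against 10.56, 10.48 and 9.77 (6.57 ± 0.21), and MUC1, a membrane mucin, read 3.78 and 3.996 against 10.45, 9.93 and 9.93 (6.22 ± 0.24). AGR2 and AGR3, disulphide isomerases of secretory cells, differed by 7.15 and 6.29. The gel-forming mucins MUC5AC (2.93 and 3.56 at day 0, 3.68, 3.63 and 3.78 in SCGB3A2+) and MUC5B (2.40 and 2.49 against 2.77, 2.57 and 2.51) did not pass, nor did SPDEF, the goblet cell factor (0.02), or LCN2 (0.05). MUC5AC passed without day 0 C (0.77, adjusted p = 0.0283). CYP2B6 was the member that fell (-1.92 ± 0.55), though not without day 0 A (-1.53, adjusted p = 0.116), while its pseudogene neighbour CYP2B7P rose (7.66 ± 0.27); probe sets of such close copies can share signal.

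Lung lineage transcription factors rose in 28 of 39 cases (71.8%), and 2 fell, or 1 without SCGB3A2+ A. FOXA1 read 2.86 and 2.03 at day 0 and 7.42, 7.69 and 7.54 in SCGB3A2+ cells (5.11 ± 0.26), and FOXA2 read 3.99 and 4.003 against 6.98, 7.09 and 6.99 (3.02 ± 0.11); both open chromatin in endoderm. KLF5, an epithelial Krüppel-like factor, read 2.69 and 3.49 against 9.51, 9.50 and 9.50 (6.42 ± 0.20), and MECOM, a zinc finger factor, read 1.96 and 2.13 against 8.27, 8.32 and 8.35 (6.27 ± 0.15). NKX2-1 differed by 4.66 ± 0.22, GATA6 by 3.91 ± 0.16 and HOPX, a homeodomain-only protein, by 4.54 ± 0.19. The arrays of the groups did not overlap for any of these 7. ETV1, a factor under FGF signalling, fell (-2.61 ± 0.21), and IRX2 and SPDEF gave 0.07 and 0.02 and did not pass.

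Other airway and alveolar cell types were represented to unequal degree. Of 20 alveolar type 1 genes 14 (70.0%) rose and 2 fell. Those higher held AQP4, a water channel (6.47 ± 0.31), GPRC5A (6.31 ± 0.26) and CLIC5 (3.91 ± 0.20). The 2 lower were AKAP5 (-1.40) and RTKN2 (-0.92). PDPN, a surface glycoprotein of type 1 cells that stem cells also carry, read 8.43 and 8.10 at day 0 and 8.23, 7.81 and 7.85 in SCGB3A2+ cells and did not pass. Of 33 ciliated cell genes 13 (39.4%) rose and 2 fell, or 1 without day 0 C. CFAP126, a cilium protein, read 2.49 and 2.60 at day 0 and 4.48, 6.97 and 4.92 in SCGB3A2+ cells, RSPH1, of the radial spoke, read 1.70 and 1.69 against 3.03, 4.37 and 3.72, and DNAH5, a dynein heavy chain, read 2.82 and 3.0 against 5.25, 5.25 and 4.596. FOXJ1, the master factor of motile cilia, read 4.35 and 4.30 against 4.33, 5.46 and 4.45 and did not pass. Array B was the highest of the 3 in CFAP126, RSPH1, FOXJ1 and the miR-34 relative MIR449C (2.94, 4.73 and 2.41), and MIR449C passed without SCGB3A2+ C (1.73, adjusted p = 0.0099). The median level of the ciliated list ran from 2.97 to 4.20 over the SCGB3A2+ arrays.

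Of 16 basal cell genes 5 rose and 2 fell. LAMB3, a laminin-332 chain, rose from 2.38 and 3.19 to 6.70, 7.01 and 6.19, and EGFR from 4.11 and 4.19 to 7.29, 7.67 and 7.12. KRT5, the keratin that defines basal cells, read 1.33 and 1.40 against 2.04, 3.26 and 1.61 and did not pass, though it did without SCGB3A2+ C (1.28, adjusted p = 0.0148). ITGA6 and DST, which anchor basal cells and are high in stem cells, fell (-2.41 and -2.03). Of 17 neuroendocrine genes 7 fell and 3 rose. The vesicle proteins SYT1 (-4.47 ± 0.22) and SCG3 (-4.79 ± 0.32) and the hydrolase UCHL1 (-3.33 ± 0.26) fell from high day 0 values, and INSM1, a factor of neuroendocrine cells, gave 0.03 and did not pass.

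Liver genes rose together with the lung genes. Of 26 liver genes 20 (76.9%) rose and 1 fell, with a median difference of 3.23. ALB, serum albumin, read 2.002 and 1.98 at day 0 and 10.66, 11.11 and 11.18 in SCGB3A2+ cells (8.99 ± 0.26), AFP, the fetal serum protein, read 1.40 and 1.76 against 9.41, 9.91 and 10.49 (8.36 ± 0.41), and TAT, tyrosine aminotransferase, read 2.51 and 2.95 against 8.19, 8.24 and 8.80 (5.68 ± 0.25). The median level of the liver list ran from 2.59 to 2.93 over the day 0 arrays and from 6.65 to 7.65 over the SCGB3A2+ arrays. AHSG and CPS1, products of mature hepatocytes, gave 0.26 and -0.35 and did not pass, and APOE fell (-1.62 ± 0.19). Of the 26 members, 9 stand on another list. ALB did not differ between the sorts beyond the threshold (-0.18 ± 0.23, adjusted p = 0.675), AFP was lower in SCGB3A2+ than in SCGB3A2- cells (-1.42 ± 0.37, adjusted p = 0.0161), and 12 of the 26 were lower and 2 higher than in SCGB3A2- cells.

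Stomach and intestine genes rose in 13 of 29 cases and fell in 1, or in 0 without day 0 C, SCGB3A2- C, SCGB3A2+ A or SCGB3A2+ B. PGC, a pepsinogen also made by type 2 cells, differed by 6.91 ± 0.33. CTSE, a gastric and airway aspartic protease, read 3.69 and 3.46 at day 0 and 10.37, 9.38 and 10.86 in SCGB3A2+ cells (6.63 ± 0.36), TFF1, a trefoil peptide of gastric mucus, read 3.54 and 3.17 against 9.67, 8.61 and 10.39 (6.20 ± 0.42), and VSIG1, a gastric junction protein, read 4.55 and 3.54 against 10.33, 9.36 and 10.72 (6.09 ± 0.40). All 3 were lowest on array B among the SCGB3A2+ arrays. CDX2, the intestinal master factor, read 3.39 and 4.70 against 4.67, 4.12 and 4.47 and did not pass, nor did CDX1 (0.00) or MUC2 (-0.13). The part of liver and stomach genes in the rise of the secreted proteins was not tested.

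**Figure D3:**
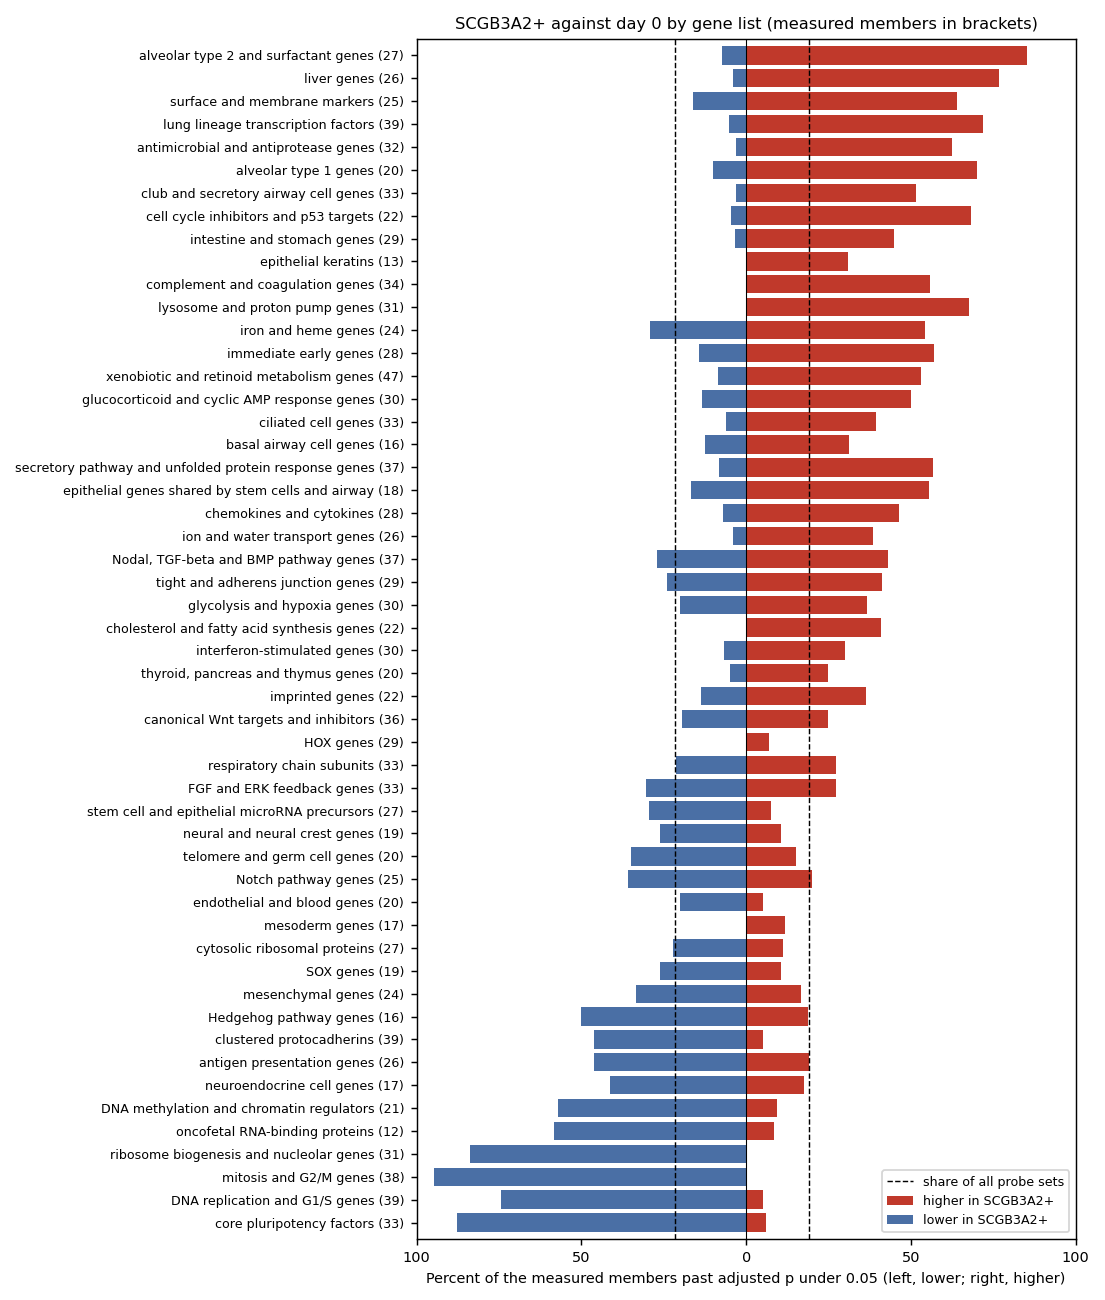
Share of the measured members of each of 52 gene lists that were higher (right, red) or lower (left, blue) in SCGB3A2+ cells, with the share of all probe sets as dashed lines at 19.0 and 21.7 percent. Alveolar type 2 and liver genes stand at the top, and pluripotency and cell division genes at the bottom.

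Secreted defence proteins rose. Of 32 antimicrobial and antiprotease genes 20 (62.5%) rose and 1 fell, or 0 without day 0 C or SCGB3A2+ A. PI3, the elastase inhibitor elafin, read 3.68 and 4.22 at day 0 and 10.68, 10.06 and 9.86 in SCGB3A2+ cells (6.25 ± 0.31), C3, the central complement protein, read 2.79 and 3.30 against 9.997, 8.85 and 9.40 (6.37 ± 0.27), and SERPINA3 differed by 5.51 ± 0.22. S100A9 and DMBT1 gave -0.25 and -0.02 and did not pass. Of 34 complement and coagulation genes 19 rose and 0 fell, or 1 without day 0 A. Those higher held CFI, which cleaves C3b (6.19 ± 0.25), F3, tissue factor (5.62 ± 0.18), and C4BPA (4.70 ± 0.27), while C8A and F7 did not pass (0.06 and 0.02). Of 28 chemokines and cytokines 13 rose and 2 fell. CCL20 read 2.76 and 3.18 against 7.65, 7.21 and 7.86 (4.61 ± 0.22), and NFKBIA, the inhibitor that NF-kappaB induces, read 6.54 and 6.69 against 10.08, 9.81 and 10.09 (3.38 ± 0.16), while CXCL5 (-1.31 ± 0.23) and CCL2 (-1.92 ± 0.40) fell.

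Of 26 antigen presentation genes 12 (46.2%, against 21.7% of all probe sets) fell. Another 5 (19.2%) rose, near the 19.0% of all probe sets. B2M, the light chain of MHC class I, rose from 8.02 and 8.21 to 9.86, 9.79 and 9.97 (1.76 ± 0.13), and CTSS, a protease of class II processing, rose (1.45 ± 0.18). Those that fell held the peptide transporters TAP1 (-1.24 ± 0.17) and TAP2 (-1.39 ± 0.16) and the class II genes HLA-DMA (-1.73 ± 0.14) and HLA-DRA (-1.80 ± 0.13). Signal of HLA genes can depend on the line's alleles, which 1 line cannot show. IFITM1, an antiviral membrane protein that stem cells hold high, fell from 10.20 and 10.26 to 7.51, 7.92 and 6.23. Of 30 interferon-stimulated genes 9 rose and 2 fell, with IFI6 at 2.37 ± 0.26 and ISG20 at 2.19 ± 0.24, and 5 rose without day 0 C or without SCGB3A2+ A.

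Both groups are epithelial, and several genes they share differed little. EPCAM, an epithelial adhesion molecule, read 9.66 and 9.42 at day 0 and 10.34, 10.29 and 10.24 in SCGB3A2+ cells (0.75 ± 0.12), and ESRP1 and KRT18 gave differences of 0.01 and -0.01. Of the 18 genes listed as shared by stem cells and airway 10 rose and 3 fell, and 6 rose without day 0 C. The claudins, which seal tight junctions, changed by member. CLDN18, of lung and stomach, read 2.70 and 2.93 against 7.95, 7.27 and 9.02 (5.26 ± 0.44), and CLDN4 read 4.16 and 3.70 against 8.38, 8.32 and 8.23 (4.38 ± 0.16). CLDN6, a claudin of stem cells, fell from 10.32 and 10.42 to 9.02, 9.21 and 9.14, CLDN10 fell by 3.66 on the log2 scale, and CLDN7 did not pass (-0.06). Among 13 keratins 4 rose and 0 fell, with KRT7 (4.38 ± 0.28), KRT19 (4.11 ± 0.29) and KRT13 (4.87 ± 0.54) the largest. Among 25 surface markers 16 rose and 4 fell. CPM, a carboxypeptidase that marks lung progenitors, read 2.54 and 2.52 against 9.01, 9.26 and 9.35 (6.67 ± 0.19), ITGB6 differed by 5.11 ± 0.20, and CD47, used for the earlier sort, by 2.19 ± 0.17.

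Transport and intracellular machinery of secretory cells rose in part. The epithelial sodium channel subunit SCNN1B read 2.42 and 3.31 at day 0 and 7.53, 7.35 and 7.85 in SCGB3A2+ cells (4.71 ± 0.24), SCNN1A differed by 2.51 ± 0.18, and CFTR, the chloride channel, by 3.52 ± 0.29. Of 26 ion and water transport genes 10 rose, and ANO1, a calcium-gated chloride channel, fell (-1.81 ± 0.14). Of 37 genes of the secretory pathway and unfolded protein response 21 rose and 3 fell. XBP1, a factor that enlarges the endoplasmic reticulum, read 8.82 and 8.29 against 10.45, 10.39 and 10.11 (1.76 ± 0.17), and EDEM1 and HERPUD1, of protein quality control, differed by 1.69 and 1.45. HYOU1, a chaperone, fell (-1.22 ± 0.13). Of 31 lysosome and proton pump genes 21 (67.7%) rose and 0 fell, with the proteases CTSH (3.25 ± 0.26) and CTSB (1.73 ± 0.14) and acid ceramidase, ASAH1 (2.97 ± 0.14), among them. FASN, fatty acid synthase, read 8.03 and 7.69 against 10.12, 9.83 and 10.09 (2.16 ± 0.14), and 9 of 22 lipid synthesis genes rose with 0 lower, or 1 without day 0 A or SCGB3A2+ A and 2 without day 0 C. The 33 respiratory chain subunits were near the background, with 9 higher and 7 lower, and 4 lower without SCGB3A2+ A.

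Genes that handle foreign compounds and retinoids rose in 25 of 47 cases and fell in 4. AHR, the aryl hydrocarbon receptor, read 5.76 and 5.58 at day 0 and 9.68, 9.71 and 9.94 in SCGB3A2+ cells (4.10 ± 0.18), and its targets CYP1B1 (4.08 ± 0.22) and TIPARP (3.79 ± 0.13) rose. CYP4B1, a lung cytochrome, rose from 3.36 and 3.94 to 8.81, 8.26 and 8.93, and CYP2S1 fell from 10.58 and 9.84 to 5.52, 5.76 and 6.29. Among 24 iron and heme genes 13 rose and 7 fell. SLC40A1, the iron exporter ferroportin, read 2.46 and 2.57 against 9.22, 8.86 and 9.24 (6.59 ± 0.17), STEAP4, a ferric reductase, differed by 5.53 ± 0.19, and its relative STEAP2 by -3.27 ± 0.17. NDRG1, a gene induced by hypoxia and differentiation, rose from 4.37 and 4.69 to 10.56, 10.28 and 9.71 (5.65 ± 0.27), while the hypoxia gene ADM fell (-2.14 ± 0.29) and the glycolytic PKM did not pass (0.01). In the list of glycolysis and hypoxia genes 11 of 30 rose and 6 fell.

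Of the signalling genes, those induced quickly by growth factors and stress rose. Among 28 immediate early genes 16 (57.1%) rose and 4 fell, or 2 without day 0 C or SCGB3A2+ A. FOS read 3.85 and 3.53 at day 0 and 8.13, 8.21 and 8.06 in SCGB3A2+ cells (4.44 ± 0.18), EGR1 read 4.78 and 4.91 against 8.41, 8.68 and 8.28 (3.61 ± 0.20), and DUSP1, a phosphatase of MAP kinases, read 4.23 and 3.64 against 8.80, 8.64 and 8.78 (4.81 ± 0.18). For these genes, sorting and time in culture cannot be told apart. FOS and EGR1 did not differ between the SCGB3A2+ and SCGB3A2- fractions beyond the threshold (0.03 ± 0.16 and -0.34 ± 0.18, adjusted p = 0.944 and 0.23). Genes induced by glucocorticoid or cyclic AMP rose in 15 of 30 cases and fell in 4. CEBPD read 4.48 and 4.95 against 9.26, 8.83 and 8.94 (4.29 ± 0.18), PDE4D, which degrades cyclic AMP, differed by 3.88 ± 0.17 and TSC22D3 by 3.53 ± 0.20, while the metallothioneins MT1X (-3.10 ± 0.43) and MT1G (-2.56 ± 0.27) fell.

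FGF, TGF-beta, Wnt, Notch and Hedgehog genes moved in both directions. Of 33 FGF and ERK feedback genes 10 fell and 9 rose. The receptor FGFR1 read 8.45 and 8.20 at day 0 and 4.97, 5.21 and 5.31 in SCGB3A2+ cells (-3.16 ± 0.17), the FGF inhibitor IL17RD differed by -4.34 ± 0.18, and the ligand FGF19 by -3.07 ± 0.19, while DUSP4, an ERK phosphatase, rose (4.22 ± 0.19). Of 37 Nodal, TGF-beta and BMP genes 16 rose and 10 fell. The Nodal-side genes GDF3 (-3.27 ± 0.17) and LEFTY1 (-2.44 ± 0.25) and the receptor ACVR2B (-2.11 ± 0.17) fell. The ligand TGFB2 read 2.51 and 2.49 against 6.96, 7.63 and 7.72 (4.94 ± 0.24), the receptor TGFBR2 differed by 3.41 ± 0.19, and the BMP-induced ID1 and ID4 by 2.71 and 3.96. Of 36 Wnt targets and inhibitors 9 rose and 7 fell, near the background. AXIN2, a direct Wnt target, read 4.82 and 4.84 at day 0, 6.31 on average at day 15 and 5.50, 4.42 and 4.77 in SCGB3A2+ cells and did not pass. The receptor FZD7 (-4.97 ± 0.13) and the inhibitor SFRP1 (-5.20 ± 0.20) fell, and the inhibitor DKK1 rose (2.98 ± 0.32). HES1, a Notch target, rose from 4.90 and 4.14 to 7.53, 7.55 and 7.62, though 9 of the 25 Notch genes fell and 5 rose. SHH, a ligand of foregut epithelium, rose (3.16 ± 0.34), while the pathway's SMO (-1.93 ± 0.18) and GLI2 (-2.76 ± 0.37) fell, among 8 lower and 3 higher of 16 Hedgehog genes.

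Patterning families changed in part. Of 29 HOX genes, which set position along the body axis, 2 rose, with differences of 0.53 for HOXC4 and 0.52 for HOXC5, and 0 fell. Neither passed without day 0 A (0.32, adjusted p = 0.205 and 0.53, adjusted p = 0.0998) or without SCGB3A2+ A (0.46, adjusted p = 0.0785 and 0.35, adjusted p = 0.123). HOXC4 was also lost without SCGB3A2+ B (0.51, adjusted p = 0.0595), and HOXC5 without day 0 C (0.52, adjusted p = 0.121), without SCGB3A2+ C (0.53, adjusted p = 0.0672) and without either day 22 array (0.52, adjusted p = 0.0502 each). Without day 0 A, 1 other HOX gene was higher and 4 were lower. The levels stayed low, with a list median between 1.84 and 2.17 over the 5 arrays. Among 19 SOX genes 5 fell and 2 rose, and the count of falls was 2 without day 0 A and 3 without SCGB3A2+ A or C. SOX6 read 1.19 and 2.13 at day 0 and 5.88, 5.62 and 5.60 in SCGB3A2+ cells (4.04 ± 0.23), and SOX9, of the distal lung tip, read 4.66 and 4.31 against 6.20, 6.14 and 6.80 (1.89 ± 0.21). Of 39 clustered protocadherins 18 (46.2%) fell and 2 rose, or 1 without day 0 C, SCGB3A2+ A, SCGB3A2- A or B, or either day 15 array. PCDHGB1 read 6.34 and 6.07 against 2.31, 2.92 and 2.84 (-3.52 ± 0.20), and PCDHB12 differed by -2.34 ± 0.15; neighbouring members are close copies that probe sets may not separate. Of 22 imprinted genes 8 rose and 3 fell, with PEG10 (1.90 ± 0.24), IGF2 (1.28 ± 0.22) and PLAGL1 (2.14 ± 0.29) among those higher and GRB10 (-1.46 ± 0.20) lower.

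Markers of cells outside the epithelium mostly did not pass or were lower. Of 24 mesenchymal genes 8 fell and 4 rose. COL1A2, a fibrillar collagen, read 6.78 and 6.98 at day 0 and 3.52, 3.52 and 3.58 in SCGB3A2+ cells (-3.34 ± 0.13), and THY1, a surface protein of stem cells and fibroblasts, read 9.47 and 8.69 against 3.81, 4.02 and 4.32 (-5.03 ± 0.22). LUM, a matrix proteoglycan, rose (4.18 ± 0.38), and VIM, the mesenchymal filament protein, read 7.82 and 7.02 against 8.49, 8.83 and 6.99 and did not pass, though it did without SCGB3A2+ C (1.24, adjusted p = 0.0165). Of 20 endothelial and blood genes 4 fell and 1 rose. KDR and TEK, endothelial receptors that undifferentiated cells of this line also showed, fell from 8.55 and 8.43 to 2.44, 3.44 and 1.99 and from 6.57 and 6.94 to 1.96, 1.90 and 2.16, VWF gave 0.00 and did not pass, and the member that rose was CD68, a lysosomal protein of macrophages (3.11 ± 0.32). Neural genes had 5 lower and 2 higher of 19, or 4 higher without SCGB3A2+ B, and mesoderm genes 2 higher of 17, OSR1 (2.97 ± 0.35) and GATA4 (2.0 ± 0.33), both also used in foregut. Of 20 thyroid, pancreas and thymus genes 5 rose, among them NKX2-1 and HHEX (2.52 ± 0.29). The median levels of the mesenchymal and the endothelial and blood lists lay between 2.21 and 3.03 on the SCGB3A2+ arrays.

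The arrays between the ends place the change along the course, but time and sorting cannot be told apart in these steps. The day 15 arrays are a CD47hi sort, no day 22 title mentions sorting, and the last step ends in the SCGB3A2+ sort. A probe set that differed by 2-fold or more was assigned to the step, day 0 to 15, day 15 to 22 or day 22 to SCGB3A2+, that moved it most in the direction of the whole change. Of the 2430 higher ones 1266 (52.1%) moved most by day 15, 733 (30.2%) from day 15 to 22 and 431 (17.7%) after day 22. Of the 2580 lower ones the numbers were 1644 (63.7%), 604 (23.4%) and 332 (12.9%). The median higher probe set had covered 51.7% of its whole change by day 15 and 82.0% by day 22, and the median lower one 63.8% and 86.6%. The steps share arrays with each other and with the whole change, so these shares are a description.

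Gene groups differed in the step that moved them most. The pluripotency genes moved most by day 15 in 24 of 28 cases, and DPPA4 had a day 15 mean of 2.42. Lung transcription factors moved most by day 15 in 19 of 26 cases, FOXA1 reaching 8.42 and NKX2-1 6.78 on average. Alveolar type 2 genes moved most between day 15 and day 22 in 16 of 23 cases, and liver genes in 19 of 21. SFTPB had a mean of 3.11 at day 15 and 11.85 at day 22, and ALB of 2.87 and 11.13. Ciliated cell genes moved most after day 22 in 10 of 14 cases. Mitosis genes were spread over the steps, with 8, 10 and 13 of 31. SFTPD and SCGB1A1 were still lower at day 22, with means of 2.83 and 5.85 against 6.34 and 11.16 in SCGB3A2+ cells. SCGB1A1 was also higher in SCGB3A2+ than in SCGB3A2- cells by 6.04. The parts of time and sorting in its last step were not tested.

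**Figure D4:**
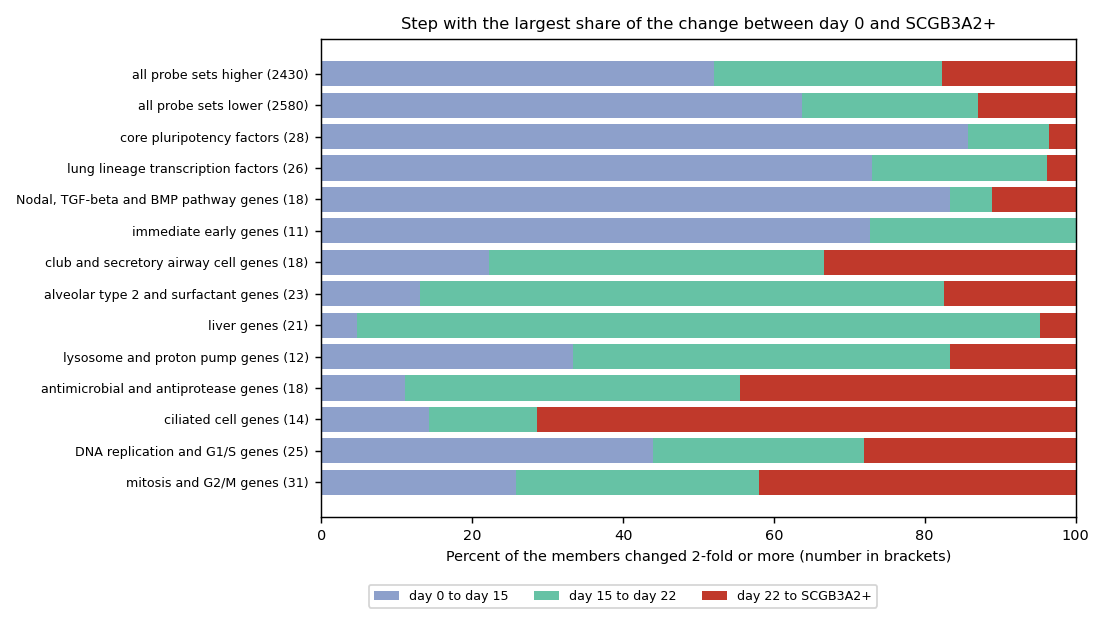
For each group, the percent of members changed 2-fold or more (number in brackets) whose largest move fell into each of 3 steps. Pluripotency genes are mostly in the first step, liver and alveolar type 2 genes in the second and ciliated cell genes in the last.

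Some genes had left and regained their day 0 level. A return was counted where day 15 and day 22 both differed from day 0 by 2-fold or more in the same direction with adjusted p under 0.05, while SCGB3A2+ cells lay within 0.5 of day 0. This held for 69 probe sets (0.290% of all), 47 higher and 22 lower in between. PCDH7, a protocadherin, read 3.83 and 4.20 at day 0, had means of 7.34 and 6.64 at days 15 and 22, and read 3.99, 4.83 and 4.41 in SCGB3A2+ cells. NRG1, a ligand of ERBB receptors, went from 3.12 and 2.99 through 6.15 and 5.58 to 2.84, 3.72 and 3.58, and its SCGB3A2+ arrays were above day 0 without array A (0.60, adjusted p = 0.00474). TRIM22, an interferon-inducible ubiquitin ligase, took the opposite course, from 6.18 and 6.47 through 3.60 and 4.26 to 6.06, 6.42 and 6.55, and was low in SCGB3A2- cells (3.64). PDPN also dipped, from 8.43 and 8.10 through 7.26 and 6.51 to 8.23, 7.81 and 7.85, with 4.07 in SCGB3A2- cells.

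The change from day 0 was then set against the other sorted fraction. Since both fractions share the day 0 arrays, the test of whether their changes differ is the SCGB3A2+ minus SCGB3A2- difference, in which day 0 cancels. It passed for 2400 probe sets higher (10.1%) and 3040 lower (12.8%) in SCGB3A2+ cells. Of the 9664 probe sets that differed between SCGB3A2+ cells and day 0, 3892 (40.3%) also differed between the fractions. Among genes past the threshold in both comparisons, SCGB1A1 had the largest difference after SCGB3A2 itself, with 6.04 ± 0.45 (adjusted p = 4.27e-06) and an SCGB3A2- mean of 5.12. Further genes higher in SCGB3A2+ cells were ROS1, a receptor tyrosine kinase of type 2 cells (5.14 ± 0.27), SFTPA1 (5.002 ± 0.36), SFTA3 (4.96 ± 0.15), AQP4 (4.76 ± 0.27) and LRRK2, a kinase tied to lamellar bodies (4.70 ± 0.31). Of the 27 alveolar type 2 genes, 23 were higher than in SCGB3A2- cells and 2 lower. The opposite side held endoderm and liver genes, SERPINA6, the cortisol-binding globulin (-3.45 ± 0.27), AKR1D1, of bile acid synthesis (-3.41 ± 0.36), ONECUT2 (-3.14 ± 0.21) and VTN (-3.12 ± 0.31), together with LIN28A (-3.28 ± 0.38) and DLK1 (-3.30 ± 0.54). LIN28A had an SCGB3A2- mean of 5.48, between day 0 and SCGB3A2+. The rise of DLK1 from day 0 did not pass without day 0 C (2.23, adjusted p = 0.0551).

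In 126 probe sets (0.530% of all) the fractions had moved in opposite directions from day 0, with all 3 differences past the threshold, 70 of them higher and 56 lower in SCGB3A2+ cells. The 70 include SCGB3A2, the gene sorted on. PTN, the growth factor pleiotrophin, read 6.497 and 6.18 at day 0, 8.65, 9.49 and 8.91 in SCGB3A2+ cells and 3.16, 4.63 and 3.18 in SCGB3A2- cells. CYBRD1, a ferric reductase of the plasma membrane, read 6.04 and 6.47 at day 0, 9.32, 8.80 and 9.32 in SCGB3A2+ and 4.12, 3.86 and 4.14 in SCGB3A2- cells, and ATP8A1, a phospholipid flippase, read 6.19 and 6.41 at day 0, 9.69, 9.09 and 9.05 in SCGB3A2+ and 5.22, 5.31 and 5.27 in SCGB3A2- cells. LPL, lipoprotein lipase, read 4.79 and 4.63 at day 0, 7.44, 7.24 and 7.40 in SCGB3A2+ and 3.06, 2.98 and 2.83 in SCGB3A2- cells. In the reverse order stood ITGA5, the fibronectin receptor subunit, with 5.93 and 5.77 at day 0, 3.33, 3.45 and 4.19 in SCGB3A2+ and 6.84, 6.71 and 6.71 in SCGB3A2- cells, LAMA1, a basement membrane laminin, with 7.14 and 7.20 at day 0, 5.19, 5.29 and 5.86 in SCGB3A2+ and 8.41, 8.47 and 8.49 in SCGB3A2- cells, and FGFR4, an FGF receptor, with 7.04 and 6.004 at day 0, 4.61, 4.75 and 5.30 in SCGB3A2+ and 7.78, 7.997 and 7.96 in SCGB3A2- cells. BAMBI, a decoy receptor of BMP and TGF-beta, and NID1, a basement membrane linker, went the same way as ITGA5. Day 0 lay between the fractions on every array for each of these. At day 15 the means of PTN (4.48), CYBRD1 (4.39), ATP8A1 (4.70) and LPL (2.33) were already below day 0, like SCGB3A2- cells. LAMA1 (9.12) and BAMBI (7.85) were above it, again like SCGB3A2- cells. ITGA5 (6.34), FGFR4 (6.53) and NID1 (6.43) did not differ from day 0 beyond the threshold. By day 22 CYBRD1 (6.93), ATP8A1 (7.36) and LPL (5.77) were above day 0. PTN (5.39), LAMA1 (7.28) and BAMBI (6.74) did not differ from it then. ATP8A1, LPL, LAMA1, FGFR4, BAMBI and NID1 were named by the size of the difference between fractions, after their values were seen.

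**Figure D5:**
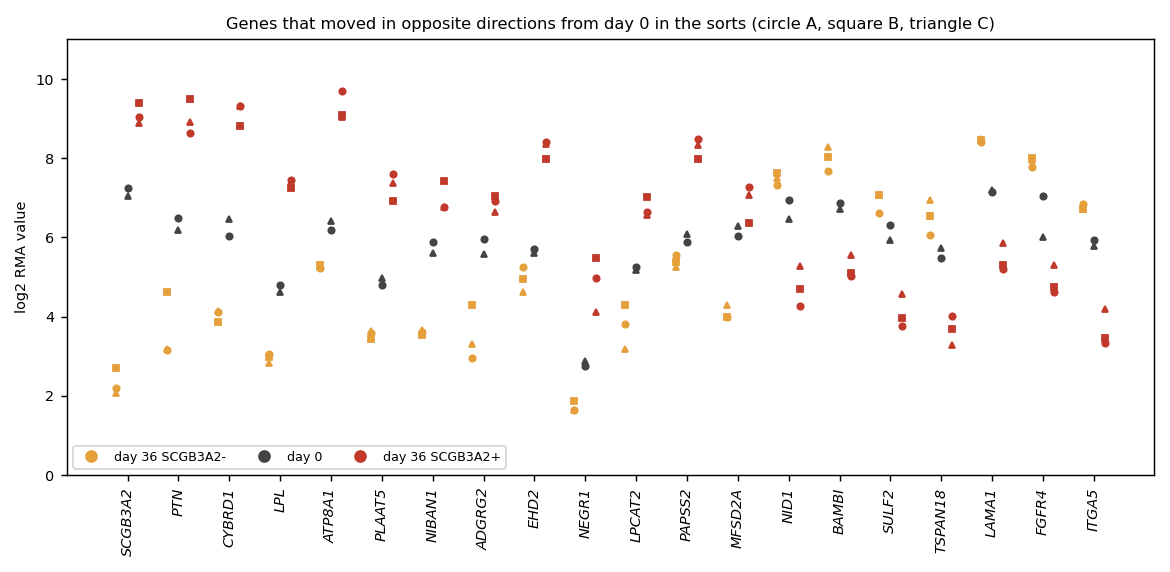
Log2 RMA values on the day 0 (grey), SCGB3A2- (orange) and SCGB3A2+ (red) arrays of the 20 characterised genes with the largest difference between the fractions among those that moved in opposite directions from day 0. The first 13 are higher in SCGB3A2+ cells and the last 7 lower. The first of all is SCGB3A2, the gene sorted on.

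The upstream sequence of genes that moved was searched for 3 short motifs, since NKX2-1 and forkhead factors such as FOXA1 rose and POU5F1 fell. Both strands of the 250 bases before each RefSeq gene start were read for CTCAAG (the core bound by NKX2-1), TGTTTAC (a forkhead core) and ATTTGCAT (the octamer of POU factors); the motifs do not overlap one another. CTCAAG was in 10.4% of all 35116 windows, in 8.34% of the windows of genes 2-fold or more higher and in 7.75% of those lower. TGTTTAC was in 2.98%, 3.29% and 2.11%, and ATTTGCAT in 1.63%, 1.13% and 1.39%. These shares were not tested, and a match is a description, not a site. Of 13 genes picked by name that had a window, 7 had a match in at least 1, or 8 of 19 windows. A window that NKX2-1 and SFTA3 share, with its forkhead match, counts for both. The share of all windows with any of the 3 motifs was not counted, so these counts have no background. SFTPB, MUC1, DPPA4, L1TD1, NANOG and DNMT3B had no match. The windows of the sorted gene, of a surfactant gene and of the miR-302 host gene are shown, picked because they hold a match, with the matches in capitals, on GRCh38.p14 and read 5′ to 3′ on the gene's strand.
SCGB3A2, chr5:147878461-147878710, plus strand: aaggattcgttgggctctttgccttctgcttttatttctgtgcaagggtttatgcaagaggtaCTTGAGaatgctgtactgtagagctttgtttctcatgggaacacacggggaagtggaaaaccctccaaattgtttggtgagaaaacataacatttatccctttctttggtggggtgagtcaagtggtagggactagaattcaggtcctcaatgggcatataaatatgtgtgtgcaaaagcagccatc
SFTPA1, chr10:79610689-79610938, plus strand: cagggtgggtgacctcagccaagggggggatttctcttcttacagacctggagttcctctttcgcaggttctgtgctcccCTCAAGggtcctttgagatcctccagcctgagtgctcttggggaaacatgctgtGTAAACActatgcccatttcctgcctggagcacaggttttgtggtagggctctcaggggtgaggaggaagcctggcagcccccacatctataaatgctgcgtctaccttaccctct
MIR302CHG, chr4:112650052-112650301, minus strand: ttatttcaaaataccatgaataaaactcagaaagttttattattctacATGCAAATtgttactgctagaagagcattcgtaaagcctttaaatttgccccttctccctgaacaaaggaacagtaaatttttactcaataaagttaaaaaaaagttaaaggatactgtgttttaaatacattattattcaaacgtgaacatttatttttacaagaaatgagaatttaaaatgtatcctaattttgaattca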

How the data were processed

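RNA of 12 samples of the RUES2 line was labelled with a whole-transcript biotin method and hybridised to Affymetrix arrays, per the labels' protocols. The values used are log2 signals that the authors deposited, 1 per probe set and array, made by RMA with affy 1.36.1 in R 2.15.1 per the submitters' processing notes. RMA adjusts for background, equalises the arrays and sums probes, and it compresses differences of dim probe sets. No detection calls were used, and the number of arrays limits the precision. Of 23786 probe sets 22458 had 1 gene symbol, 0 several and 1328 none. Here limma 3.58.1 in R 4.3.3 was fitted (lmFit, eBayes) with 1 mean per group over all 12 arrays, with 7 residual and 4.43 prior degrees of freedom and Benjamini-Hochberg adjustment over all probe sets, and the script was tested on simulated data. Groups and replicate letters came from the titles.

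The genes named are the 15 largest changes each way, up to 6 members of each of 52 gene lists by adjusted p with 2 opposing and 2 least changed members, the 10 largest differences each way between the fractions, 10 return-pattern genes, and fixed markers. The lists hold 1409 entries with a probe set. The members, lists and rule were chosen with earlier results of these data known, so no count is independent support. Day 0 and SCGB3A2+ shared only the letters A and C. The correlation of their deviations from the group means was -0.01 for A and 0.01 for C. With 2 day 0 arrays the deviations of A and C mirror each other, so this check is weak. The labels do not say that the letters pair arrays, and the samples were not treated as paired. Alternatives changed the variance model, the scaling, the filter on dim probe sets, the block, the arrays fitted and each replicate.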

Additional observations from a re-analysis of the deposited data

Results flagged for a closer look

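The change from day 0 differed between the SCGB3A2+ and SCGB3A2- fractions, by limma's test of the difference itself, in 5440 probe sets, and in 126 the fractions moved in opposite directions from day 0. Among genes past the threshold in both comparisons and leaving out SCGB3A2, the SCGB3A2+ minus SCGB3A2- difference on the log2 scale was largest for SCGB1A1 at 6.04, PTN at 5.36, ROS1 at 5.14, CYBRD1 at 5.11 and SFTPA1 at 5.002. It was 4.96 for SFTA3, 4.76 for AQP4, 4.70 for LRRK2 and 4.67 for ZNF385B. On the other side it was -3.45 for SERPINA6, -3.41 for AKR1D1, -3.30 for DLK1, -3.28 for LIN28A and -3.22 for ST8SIA3. It was -3.19 for ANXA13, -3.14 for ONECUT2, -3.12 for VTN, -3.09 for ITGA5 and -3.08 for SFRP5. With 2 or 3 arrays a group, no array was tested for standing apart.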

How the results depend on the processing

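Across 19 alternatives the count of higher probe sets ran from 3563 to 4661 and that of lower ones from 3992 to 5439. Of 484 named genes 342 passed, 320 of them under every alternative, while 22 were lost and 29 others gained under at least 1. With the replicate block 4393 were higher and 4976 lower. Deviations of same-lettered day 0 and SCGB3A2+ arrays showed little correlation, a weak check with 2 day 0 arrays. Letters of the other groups were not checked. ELAVL4 (-0.02) passed as -0.75 without day 0 A and as 0.72 without day 0 C. HOX genes higher (2) were 0 with array quality weights, 0 with dim probe sets left out, 0 with only the arrays compared, 1 with the block and 0 to 2 with a replicate left out. SOX genes lower (5) were 3 with array quality weights and 2 to 5 with a replicate left out. Ribosomal proteins lower (6) were 10 after quantile normalization and up to 10 with a replicate left out. Interferon-stimulated genes higher (9) were 5 with array quality weights and as few as 5 with a replicate left out, and shared epithelial genes higher (10) as few as 6. Imprinted genes higher (8) were 5 with array quality weights, and respiratory chain subunits higher (9) were 3 with only the arrays compared. The causes were not tested. The return pattern and the steps have no value with only the arrays compared. Dim probe sets have no order near the floor of the array.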
